A study of Mus musculus with 576 samples.

Results

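Prox1 is the mouse homologue of the fly gene prospero and encodes a homeodomain transcription factor. It marks the early progenitors of the pancreas and liver, is kept at later stages in pancreatic duct and islet cells while acinar cells lose most of it, and is the factor that specifies lymphatic endothelium. Its transcript was followed here in 549 single dorsal pancreas cells of mouse embryos, taken at embryonic day 12.5 (E12.5), a stage at which the epithelium consists of tip cells with acinar potential, trunk cells from which ducts and endocrine cells derive, and the first endocrine cells, all surrounded by mesenchyme. Prox1 is 1 gene (ENSMUSG00000010175) of the 36658 listed in the 3 count tables, found by its symbol.

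Smart-seq2, a plate method that makes a separate library from every sorted cell and has no molecular identifiers, was run on GFP+ cells of 3 mouse lines. Embryos of the Nkx2.5-Cre;mTmG line, and likewise those of the Nkx3.2-Cre;mTmG line, carry a membrane GFP that Cre switches on in cells with a history of the driver gene, and both drivers are active in mesoderm. Tg(Prox1-EGFP) embryos, the Prox1-GFP line, carry an EGFP transgene under Prox1 control, so the sort chose cells of that line by a reporter of the gene measured here. Each line filled 2 plates of 96 wells and all were taken at the same stage. No embryo or litter is named for a cell, so every line counts as 1 sample, no test between lines or cells was made, and a difference can be set only against the spread of cells and of the 2 plates. After filtering, 90 and 83 cells of the Nkx2.5-Cre;mTmG line remained (plates 6A and 6B), 95 and 96 of the Nkx3.2-Cre;mTmG line (plates 7A and 7B), and 93 and 92 of the Prox1-GFP line (plates 8A and 8B). Cells held 224814 to 1512736 counts, with medians of 1056674, 896115 and 808006 in the 3 lines. Libraries of the Prox1-GFP line were numbered apart from the others, so its batch and its genotype cannot be told apart. The labelled tissue was reflected in all lines by mesenchymal genes, with 15 of 17 in a fixed list (Vim, Col1a1, Col3a1, Pdgfra and others) at 10 CPM or more in each Nkx line and in the Epcam- Vim+ cells of the Prox1-GFP line, and by all 14 genes of an epithelial adhesion list at that level in the Epcam+ cells.

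On GRCm38, Prox1 lies on the minus strand of chromosome 1 between 190118035 and 190170714, a span of 52680 bp with 3 annotated protein-coding transcripts and 9 distinct exons (GENCODE M21). The antisense genes Gm28172 and Prox1os overlap it on the plus strand and are not among the genes listed in the count tables. Smart-seq2 libraries do not mark the strand, so reads from the shared bases could be counted to Prox1. Their part in its counts was not tested. The nearest protein-coding gene at lower coordinates, Smyd2, a lysine methyltransferase gene 195672 bp away, had 62, 78.7 and 73.4 CPM (each gene's share of all counts, summed over cells and scaled to 1000000) in the Nkx2.5-Cre;mTmG, Nkx3.2-Cre;mTmG and Prox1-GFP lines. At higher coordinates the nearest, Rps6kc1, at 529488 bp, had 24.4, 26.9 and 16.5 CPM. Neither neighbour followed the pattern of Prox1 described next. Prox2, the paralogue, had 9.72, 2.64 and 2.13 CPM and was counted in 15, 27 and 25 cells.

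Prox1 was almost absent from the 2 Cre lines and abundant in the Prox1-GFP line. In the Nkx2.5-Cre;mTmG line it reached 0.584 CPM (exact 95% Poisson interval 0.477 to 0.708), from 3 cells (1.73%, exact 95% binomial interval 0.359% to 4.98%). In the Nkx3.2-Cre;mTmG line it reached 0.695 CPM (0.575 to 0.832), from 4 cells (2.09%, 0.573% to 5.28%). In the Prox1-GFP line it reached 949.8 CPM (944.9 to 954.8), with at least 1 count in 72 of 93 cells on plate 8A and 71 of 92 on plate 8B (77.3% in all, 70.6% to 83.1%). The Poisson intervals take reads as independent, although reads copied by PCR are counted as well, so they are too narrow even for counting error. The binomial intervals take cells as independent draws. Neither covers the spread between plates or embryos. Plates 6A and 6B had 0.36 and 0.825 CPM and plates 7A and 7B 0 and 1.58 CPM, all outside the Poisson intervals of their lines. Thinning every cell to 100000 counts gave shares of 1.73%, 1.05% and 76.2%, with 2 of the 4 cells of the Nkx3.2-Cre;mTmG line left without a count. The median cell of the Prox1-GFP line had 470.0 CPM and the highest 4522 CPM, and plates 8A and 8B had 1102 and 814.0 CPM. The share in this line is that of cells sorted on a Prox1 reporter, and its 42 cells without a count passed the same gate as the rest.

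The 7 cells of the Cre lines that held Prox1 were without Epcam, Cdh1 and Krt8. The 3 of the Nkx2.5-Cre;mTmG line had 2.03, 25.8 and 67.8 CPM and the 4 of the Nkx3.2-Cre;mTmG line 0.977, 1.66, 29.8 and 124.9 CPM. All 7 also had Chga and Cpa1 at 0, with Vim from 30.01 to 1365 CPM and Col3a1 from 222.6 to 2847 CPM. The cell with 67.8 CPM of Prox1 was the lowest in Vim and so fell outside the Epcam- Vim+ class defined next, and the cell with 1.66 CPM held Upk3b (480.6 CPM) and Wt1 (289.99 CPM), genes of the mesothelium. The 4 of the Nkx3.2-Cre;mTmG line were all on plate 7B, and 0 of 95 cells on plate 7A had a count, with an upper limit of 3.81% by the same exact interval. Plate 7B also held the 4 cells of that line with Epcam, the epithelial adhesion molecule, at 50 CPM or more (70.8 to 460.8 CPM). None of these 4 had a Prox1 count, an upper limit of 1.29 CPM. They held Upk3b (254.1 to 1150 CPM) and Wt1 (547.1 to 1003 CPM) as well, and no Cdh1, Sox9 or Cpa1.

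**Figure D1:**
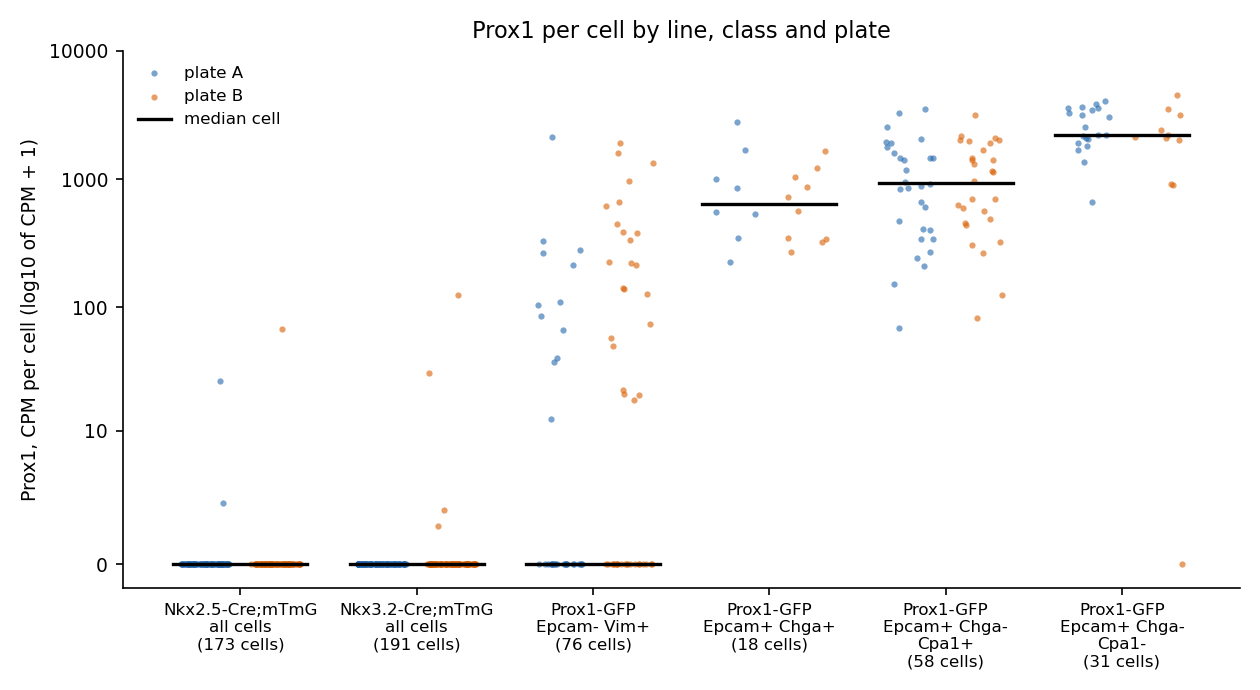
Each point is the Prox1 CPM of a single cell on a log10 scale of CPM + 1, by line and, within the Prox1-GFP line, by class, with plates A (blue) and B (orange) side by side and a black bar at the median cell. The 2 Cre lines lie at 0 apart from 7 cells, Epcam- Vim+ cells run from 0 to 2135 CPM, and the Epcam+ Chga- Cpa1- class has the highest median, at 2200 CPM.

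Within the Prox1-GFP line, Prox1 followed the split between epithelium and mesenchyme but was not confined to one side. Cells were sorted by their own CPM into Epcam+ (50 CPM or more) and Epcam- (under 10 CPM), and Vim (vimentin, an intermediate filament of mesenchymal cells) was called positive at 50 CPM or more. These classes are ranges of a level and not cell types, and 2 cells of the line lay within 10 to 100 CPM of Epcam. The Epcam+ cells had 1427 CPM of Prox1 (1419 to 1435), with a count in 58 of 58 cells on plate 8A and 48 of 49 on plate 8B (99.1% in all, with a lower limit of 94.9%). Their lowest, median and highest cells had 0, 1306 and 4522 CPM. The 76 Epcam- Vim+ cells had 183.9 CPM (180.4 to 187.4), with a count in 35 of 76 (46.1%, 34.5% to 57.9%), a median of 0 and a highest cell of 2135 CPM. The summed level was thus 7.76 times higher in Epcam+ cells (7.61 to 7.92), and these 57.8% of cells held 90.7% of the line's Prox1 counts, against 7.46% in the 41.1% that were Epcam- Vim+. The direction was shared by both plates, but the size was not, at 14.9 times on plate 8A (1596 against 107.4 CPM) and 5.31 times on plate 8B (1255 against 236.4 CPM).

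The share with Prox1 in these mesenchymal cells was higher on both plates, at 12 of 33 cells on 8A and 23 of 43 on 8B, than on any plate of the other lines. Among Epcam- Vim+ cells, 2 of 83 on plate 6A and 0 of 71 on plate 6B had a count in the Nkx2.5-Cre;mTmG line (1.30%), and 0 of 91 on plate 7A and 4 of 87 on plate 7B in the Nkx3.2-Cre;mTmG line (2.25%), with median genes detected of 5922 and 7326 against 6431 in the Prox1-GFP line. With 1 sample a line, this difference was not tested. The GFP gate, the batch and the line differ together here, and their parts cannot be told apart.

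**Figure D2:**
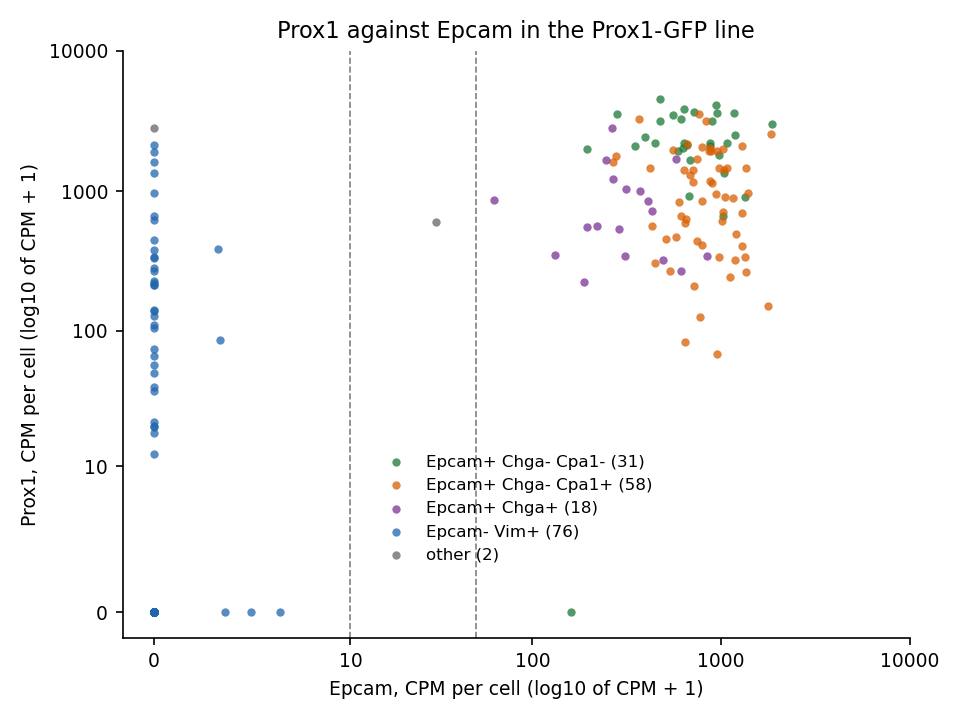
Each point is a cell of the Prox1-GFP line, with its Epcam on the x axis and its Prox1 on the y axis, both in CPM on a log10 scale of CPM + 1 and coloured by class; dashed lines mark 10 and 50 CPM of Epcam. Nearly all Epcam+ cells lie above 50 CPM of Prox1, and the Epcam- Vim+ cells, stacked at the left, cover the range from 0 to 2135 CPM.

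A few mesenchymal cells carried most of the Prox1 outside the epithelium. Of the 76 Epcam- Vim+ cells, 41 had no count, 12 lay under 100 CPM, 23 at 100 CPM or more and 4 of these at 1000 CPM or more. The 4 highest, with 1340 to 2135 CPM, held 55.9% of the counts of the class, and without them its level was 86.2 CPM (83.8 to 88.7), 16.5 times below the Epcam+ cells. They held genes of mesenchyme, with Vim at 299.5 to 598.6 CPM, Col1a1 at 273.1 to 1326 CPM and Col3a1 at 808.3 to 1467 CPM. Pdgfra and Pdgfrb of the same list were each counted in 3 of the 4, and both were at 0 in the cell of highest Prox1. All 4 also held Isl1 (139.7 to 485.4 CPM), a transcription factor gene, and Igf1 (463.2 to 1615 CPM), which encodes a growth factor. Epcam, Cdh1, Krt8, Chga, Gcg, Cpa1 and Neurog3 were at 0 in all 4, and so were Cdh5 and Lyve1 of blood and lymphatic endothelium, Upk3b of mesothelium, Sox10 of neural crest, and Afp of hepatoblasts. Sox9 was counted in 2 of the 4 (up to 46.1 CPM) and Wt1, also a gene of the mesothelium, in 1 (82.1 CPM).

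The 23 Epcam- Vim+ cells at 100 CPM of Prox1 or more also had Cdh1, Krt8, Chga and Neurog3 at 0 throughout and Epcam at 1.20 CPM at most. Other genes of the epithelium were not all at 0, since Cpa1 was counted in 3 of them (up to 223.0 CPM), Gcg in 2 (up to 4.99 CPM) and Sox9 in 7 (up to 138.4 CPM). Of a 7-gene list of lymphatic endothelial markers, Lyve1, Flt4, Sox18 and Mmrn1 were at 0 in the whole Epcam- Vim+ class, while Reln had 17.2 CPM, Pdpn 5.32 CPM and Ccl21a 1.66 CPM, and the highest cell held 652.8 CPM of the list. Of the 7 blood endothelial markers, Cdh5, Tek and Esam were at 0, Pecam1 was counted in all 76 cells (42.7 CPM), and Kdr had 7.03 CPM. The part of these genes in the Prox1 values was not tested. Isl1 was counted in 17 of these 23 cells and in 32 of the 41 cells without Prox1, Igf1 in 16 and 25, and Barx1, a homeobox gene of stomach and pancreas mesenchyme, in 17 and 25. Wt1 was counted in 8 of 23 and in 15 of 41. The exact intervals of these shares, over few cells of 1 sample, are wide, as 51.6% to 89.8% for Isl1 in the 23. Their overlap for all 4 genes therefore decides nothing, and no difference was tested. Of the cells at 100 CPM of Prox1 or more, 16 of 23 were on plate 8B, and of those without Prox1 20 of 41. These genes were chosen after the values of the 4 highest cells had been seen.

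Among Epcam+ cells, Prox1 was highest where both the endocrine marker Chga (chromogranin A, a secretory granule protein) and the tip marker Cpa1 (carboxypeptidase A1, a digestive enzyme) were low. The 31 Epcam+ Chga- Cpa1- cells, under 50 CPM of both, had 2412 CPM (2393 to 2432), with a median cell of 2200 CPM and quartiles of 1962 and 3363 CPM. The 58 Epcam+ Chga- Cpa1+ cells had 1123 CPM (1114 to 1132), with a median of 932.9 and quartiles of 441.7 and 1669 CPM. The 18 Epcam+ Chga+ cells had 883.4 CPM (868.4 to 898.6), with a median of 644.8 and quartiles of 346.2 and 1027 CPM. The order of the classes by level was therefore Chga- Cpa1-, Chga- Cpa1+, Chga+, Epcam- Vim+, then the 2 Cre lines.

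The first of these steps was larger than the spread of plates and the second was not. Chga- Cpa1+ cells had 0.466 times the level of Chga- Cpa1- cells (0.46 to 0.471), with 1137 against 2594 CPM on plate 8A and 1111 against 2131 CPM on plate 8B, and over both plates the upper quartile of the former lay below the lower quartile of the latter. On plate 8B alone these quartiles crossed, at 1746 and 1463 CPM. Chga+ cells had 1074 CPM on plate 8A and 757.9 CPM on plate 8B, against 1137 and 1111 CPM in Chga- Cpa1+ cells, and the quartile ranges of the 2 classes overlap. The intervals of the 2 Cre lines overlap, so their order is not given by these counts. Markers that define the classes were met in them, with 12 of 14 tip genes at 10 CPM or more in Chga- Cpa1+ cells against 5 of 14 in Chga- Cpa1- cells, and 20 of 20 endocrine genes in Chga+ cells against 1 and 6 of 20.

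**Figure D3:**
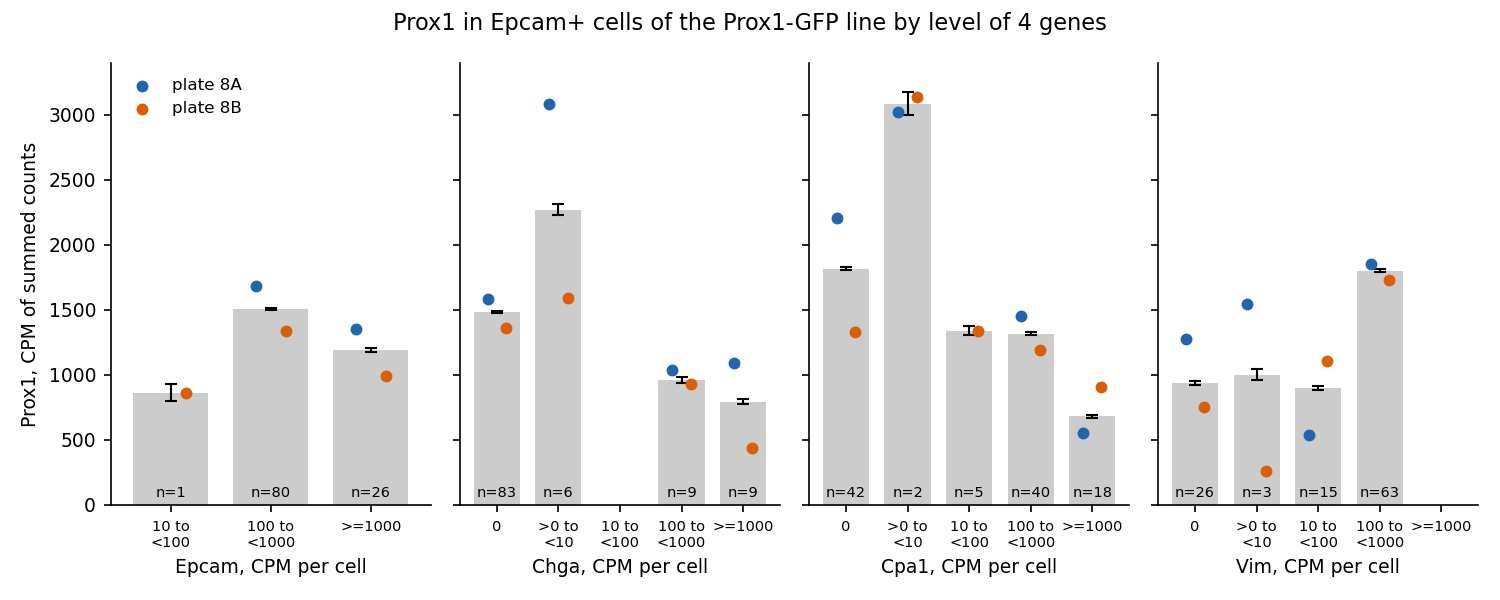
Grey bars give Prox1 in CPM of summed counts over Epcam+ cells of the Prox1-GFP line. They are grouped on the x axes by each cell's CPM of Epcam, Chga, Cpa1 or Vim. The exact 95% Poisson intervals take reads as independent. Points give plates 8A (blue) and 8B (orange), and the number of cells is printed in each bar. Prox1 goes from 1818 CPM in cells without Cpa1 to 680.8 CPM at 1000 CPM or more of Cpa1, and, in the bars by Vim, is highest at 100 CPM or more, at 1802 CPM.

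Prox1 was lower in Epcam+ cells at the top of the range of Cpa1 and of Chga. The 42 Epcam+ cells without Cpa1 had 1818 CPM of Prox1, the 40 cells at 100 to under 1000 CPM of Cpa1 had 1319 CPM, and the 18 cells at 1000 CPM or more had 680.8 CPM (667.6 to 694.1). Another 2 cells with a trace of Cpa1, under 10 CPM, had 3087 CPM of Prox1. Prox1 was never lost at the top of the range, with a count in 18 of 18 cells and values of 151.9, 539.6 and 1448 CPM in the lowest, median and highest. With Chga+ cells left out, the 28 cells without Cpa1 had 2379 CPM. On plate 8A the values without Cpa1 and at 1000 CPM or more, over all Epcam+ cells, were 2209 and 552.0 CPM, and on plate 8B they were 1329 and 904.4 CPM. By level of Chga, the 83 cells without it had 1482 CPM of Prox1 and the 9 at 1000 CPM or more had 794.6 CPM. On plate 8A these were 1587 and 1094 CPM, and on plate 8B 1362 and 437.9 CPM, so the wider range was that of Cpa1 on plate 8A and that of Chga on plate 8B.

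Vim went the other way inside the epithelium. The 63 Epcam+ cells at 100 to under 1000 CPM of Vim had 1802 CPM of Prox1 (1790 to 1813), against 897.6 CPM in the 15 at 10 to under 100 CPM and 937.6 CPM (925.2 to 950.2) in the 26 without Vim. The level at 100 to under 1000 CPM of Vim was the highest on both plates. It had 1850 against 1279 CPM without Vim on plate 8A and 1727 against 754.5 CPM on plate 8B. The cells at 10 to under 100 CPM lay below those without Vim on plate 8A (538.2 CPM) and above them on plate 8B (1111 CPM). In the Chga- cells alone, those at 100 to under 1000 CPM of Vim had 1802 CPM. The 9 Chga- cells without Vim had 1027 CPM, and the 3 of them on plate 8A had 1657 CPM. In the Epcam- Vim+ class, Prox1 had 130.8 CPM in the 4 cells under 100 CPM of Vim, 191.3 CPM in the 67 at 100 to under 1000 CPM and 111.2 CPM in the 5 at 1000 CPM or more. The 4 cells of highest Prox1 were all among the 67, so no order is read from these values. By level of Epcam itself, there were 1507 CPM of Prox1 in the 80 cells at 100 to under 1000 CPM of Epcam and 1193 CPM in the 26 at 1000 CPM or more.

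All Epcam+ cells were also divided by their level of Neurog3, the transcription factor gene of endocrine progenitors. The 20 Epcam+ cells with Neurog3 at 50 CPM or more had 2180 CPM of Prox1 (2157 to 2203), with a lowest cell at 919.9 CPM, against 1263 CPM in the other 87. Of these 20, the 16 that were Chga- had 2484 CPM and the 4 that were Chga+ had 1210 CPM. The Chga- Cpa1- class as a whole, with or without Neurog3, had 2412 CPM. Among the 18 Chga+ cells, the 14 with a count of Gcg, the glucagon gene, had 648.8 CPM of Prox1 and ran from 224.8 to 1221 CPM. The 4 without Gcg had 344.8, 1670, 1690 and 2812 CPM. The last 3 exceed every cell with Gcg while the first lies low in their range, and this split was chosen after the values had been seen.

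A few cells sat against their class. The only Epcam+ cell without a Prox1 count, on plate 8B, had 161.4 CPM of Epcam but no Cdh1, Krt8, Sox9 or Spp1, and held Vim (479.9 CPM), Col1a1 (734.1 CPM) and Isl1 (268.9 CPM). The lowest Epcam+ cells with a count were Chga- Cpa1+, at 68.6 and 82.6 CPM. Of the 2 cells outside the classes, both on plate 8A, the first had no Epcam but Cdh1 (189.97 CPM), Krt8 (3011 CPM) and Chga (2865 CPM), with 2811 CPM of Prox1. The second had 30.3 CPM of Epcam and 600.9 CPM of Prox1, with Col1a1 at 1297 CPM and Cdh1 at 0.

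Genes that varied with Prox1 from cell to cell were then described inside each class. Spearman's rho with Prox1 was taken across the Epcam+ cells (58 on plate 8A and 49 on plate 8B) and, apart, across the 76 Epcam- Vim+ cells, and a gene was counted as varying with Prox1 where rho was at least 0.3 in size over the class and at least 0.2 the same way on plates 8A and 8B. Cells of a class share their plates, embryos and differences of depth, so rho is a description with no p-value. Of 9750 genes tested in Epcam+ cells, 150 varied up with Prox1 (1.54%) and 110 down (1.13%), and the median rho was -0.03. In Epcam- Vim+ cells 32 of 8830 varied up (0.362%) and 45 down (0.51%). Prox1 itself had a rho of -0.36 with the number of genes detected in Epcam+ cells and of 0.01 in Epcam- Vim+ cells. In a partial rank correlation given the number of genes detected, 1.42% of genes varied up in Epcam+ cells, and 76.7% of the 150 were among them, while 52 varied down, 47 of them among the 110.

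The genes most like Prox1 in the epithelium included Spp1 and Sox9 of the trunk list. Spon1, a secreted matrix protein, came first with a rho of 0.59 (0.59 on plate 8A and 0.57 on plate 8B). Spp1, which encodes osteopontin and marks ductal cells, had 0.58, and Sox9, the transcription factor gene of pancreatic progenitors and ducts, had 0.53 (0.43 and 0.62). Anxa2, a membrane-binding annexin, had 0.56, and Col2a1, a fibrillar collagen, and Sparc, a matrix glycoprotein, had 0.52 and 0.51. The other 4 of the 10 highest were Litaf, a protein of endosome membranes (0.53), Myl12b, a regulatory light chain of myosin (0.52), Pik3ap1, an adaptor of PI3-kinase (0.52), and Smtnl2, a smoothelin-like gene (0.52). All 10 followed the order of the Epcam+ classes, which was largely set by choosing them for their rho across these same cells. Spp1 had 7798 CPM in Chga- Cpa1- cells, 2463 CPM in Chga- Cpa1+ cells and 0.734 CPM in Chga+ cells, and Sox9 had 889.2, 595.6 and 23.1 CPM. In Epcam- Vim+ cells Anxa2 (558.9 CPM) and Sparc (724.7 CPM) lay above every Epcam+ class, unlike the rest of the 10. With Pearson's r of log2(CPM + 1) in place of rho, 9 of the 10 still met the rule.

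The genes that went against Prox1 included Ptf1a of the tip list and genes highest in Chga+ cells. Cpn1, the catalytic subunit of a carboxypeptidase, had the lowest rho at -0.53 (-0.57 and -0.48 on the 2 plates). Ptf1a, the transcription factor gene required for acinar cells, had -0.48 (-0.63 and -0.26). Xbp1, a transcription factor of secretory cells, had -0.45, and Srm, spermidine synthase, had -0.47. Dap and Camk1d, a kinase gene, had -0.48 and -0.47. Rbp4, a retinol carrier, had -0.45 with 4325 CPM in Chga+ cells against 34.8 CPM in Chga- Cpa1- cells, and Bex2 (-0.45) and the collagen gene Col1a2 (-0.45) were also highest in Chga+ cells. Ptf1a was counted in Chga- Cpa1+ cells (90.4 CPM) and stood at 0 CPM in both other classes. With Pearson's r, 3 of the 10 lowest genes met the rule, and all 10 kept their sign.

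**Figure D4:**
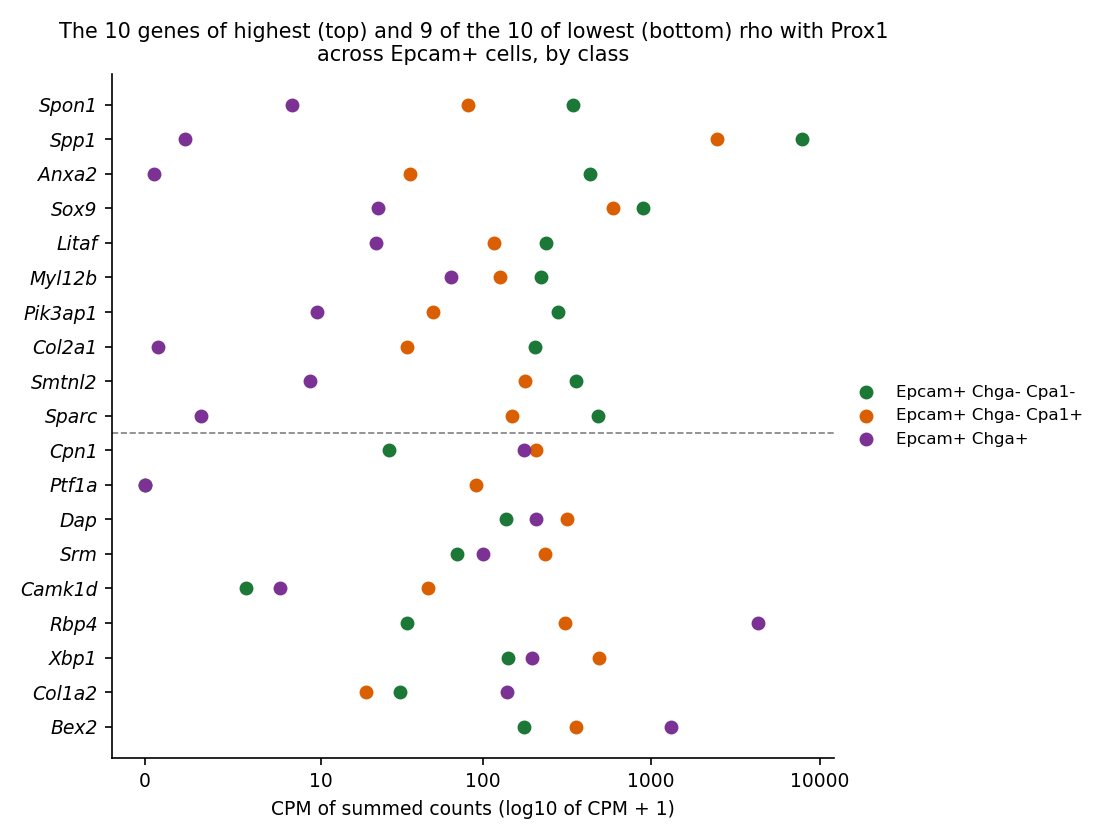
Points give the CPM of summed counts (x axis, log10 of CPM + 1) in the 3 classes of Epcam+ cells for the 10 genes of highest rho with Prox1 (above the dashed line) and 9 of the 10 of lowest (below). In the upper set Chga- Cpa1- cells (green) lie above the other classes throughout, and for Ptf1a the points of the Chga+ and Chga- Cpa1- classes coincide at 0.

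Inside a single class, some of these genes still varied with Prox1 and others did not. Across the 31 Chga- Cpa1- cells, rho with Prox1 was 0.16 for Spon1, 0.23 for Spp1 and 0.02 for Col2a1, but 0.47 for Sox9, 0.49 for Litaf and 0.69 for Myl12b. Across the 58 Chga- Cpa1+ cells it was 0.50 for Spon1, 0.45 for Spp1 and 0.42 for Sox9, with -0.57 for Ptf1a and -0.60 for Dap. Over both plates the rho of Sox9 was thus of like size inside both Chga- classes. Within the Chga- Cpa1- cells it differed by plate, at 0.30 on plate 8A and 0.67 on plate 8B. In the 31 cells 4 of the 10 highest genes and 2 of the 6 of the 10 lowest that could be tested still met the rule. Under it 373 genes (4.02%) varied up and 509 (5.48%) down in that smaller set. Among those 6 lowest genes, Dap (0.15) and Cpn1 (0.08) had a rho above 0 there. Srm (-0.47), Xbp1 (-0.30), Rbp4 (-0.12) and Bex2 (-0.08) stayed below 0.

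The same contrast showed in lists of genes by role. Of 14 genes of epithelial adhesion, all were tested in Epcam+ cells and 6 varied up with Prox1, none down, against 1.54% up and 1.13% down over all genes, with a median rho of 0.29 against -0.03 over all genes. The keratins Krt8, Krt18 and Krt19 (0.45, 0.37 and 0.30), the claudins Cldn3 and Cldn6 (0.44 and 0.41) and Elf3, an epithelial transcription factor (0.37), were those 6, while Epcam had 0.01. Of the trunk and duct list, 11 of 14 were tested and 5 varied up (Sox9, Spp1, Nkx6-1 with 0.50, Dcdc2a with 0.44 and Tead2 with 0.30), also against 1.54% over all genes, with a median of 0.22. Pdx1, the early pancreatic regulator, had 0.05 (-0.19 and 0.29 on the 2 plates), and Foxa2 was the lowest at -0.21. With Chga+ cells left out, 5 adhesion genes and 4 trunk genes varied up, against 1.62% of all genes. Their medians were 0.18 and 0.22, and Krt19 (0.28) and Tead2 (0.22) fell short. Inside the Chga- Cpa1- class 5 of 14 adhesion genes varied up, without Krt8 (0.12), against 4.02% of all genes. Of the 11 trunk genes 2 did so there, Sox9 and Onecut1.

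Of the tip and early acinar list, 11 of 14 were tested and 10 had a rho below 0, with a median of -0.33. Of these, 2 met the rule on both plates, Ptf1a among them, against 1.13% down over all genes. Cpa1 had -0.40, from -0.59 on plate 8A and -0.12 on plate 8B, and Rbpjl (-0.34), Cel (-0.33), Cela1 (-0.32) and Myc (-0.36) likewise fell short on plate 8B. Gata6 stood apart at 0.24. With the 18 Chga+ cells left out, 7 of the tip genes varied down, the median was -0.46, and Gata6 varied up at 0.31. In those 89 cells 3.39% of all 9569 genes tested varied down and 1.62% up. Of the endocrine list 9 of 20 were tested in all Epcam+ cells, where 1.54% of genes varied up and 1.13% down. Neurog3 alone met the rule, upward at 0.34 (0.40 and 0.24), whereas Gcg had -0.27, Pcsk2, a prohormone convertase, -0.28 and Chga -0.17. Inside the Chga- Cpa1- class Neurog3 had 0.17 (0.29 on plate 8A and 0.05 on plate 8B).

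Among other pathways, 1 of 12 tested Notch genes varied with Prox1, the receptor gene Notch2 (0.39), against 1.54% up over all genes, and with Chga+ cells left out the ligand gene Jag1 varied down at -0.48. All 14 genes of the G2/M list had a rho below 0, with a median of -0.16. Cenpa at -0.31 was the only one to meet the rule, against 1.13% down over all genes. Without Chga+ cells 5 of 14 did so (Cdk1, Cenpa, Aurka, Bub1 and Plk1), where 3.39% of all genes varied down. Of 14 S phase genes none met the rule, with a median of 0.05. Of 16 partners and targets of Prox1 known from other tissues, 7 were tested and none met it. At the shares over all genes (1.54% up and 1.13% down), lists of this size can hold none, so nothing is read from this. The highest of the 7 partners and targets was Cdkn1c, which encodes a cell cycle inhibitor, at 0.295 and so just short of the threshold. Cdkn1c met the rule at 0.34 without Chga+ cells. Hnf4a, a hepatic partner, had -0.06 and Nr5a2, a nuclear receptor, -0.04. In the 5 mesenchymal core genes tested, Vim varied up at 0.46 and Col1a2 down.

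**Figure D5:**
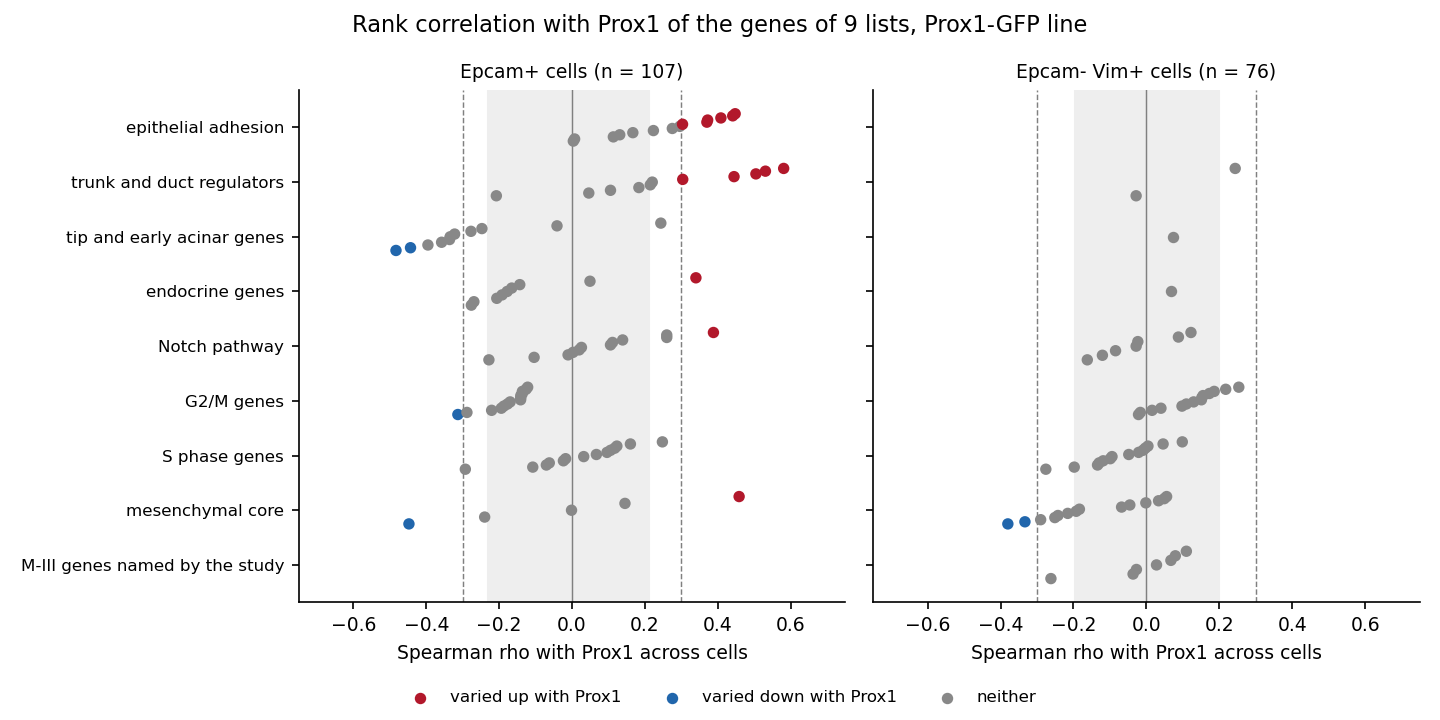
Each point is a gene of a list (rows) placed at its Spearman rho with Prox1 (x axis) across Epcam+ cells (left) or Epcam- Vim+ cells (right) of the Prox1-GFP line, red or blue where it varied up or down with Prox1 on both plates; the grey band spans the 5th to 95th percentile of all genes tested and dashed lines mark the threshold of 0.3. Trunk and adhesion genes reach to the right of the band and tip genes to the left in Epcam+ cells, while in Epcam- Vim+ cells only 2 genes of the mesenchymal core list, Cdh2 among them, pass the threshold.

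In the mesenchyme, rho with Prox1 was weaker and its genes were others. The highest was Cops4, a subunit of the COP9 signalosome, at 0.45 (0.33 and 0.51 on the 2 plates), and the 10 highest also held Calcrl, a receptor for adrenomedullin (0.40), and Hnrnpk, an RNA-binding protein (0.39). The lowest were Tac2, a tachykinin gene, at -0.46, mt-Co2 of the mitochondrial genome at -0.45, Atl2, of the endoplasmic reticulum, at -0.44, and Ptn, the growth factor pleiotrophin, at -0.42. Prox1 also had a rho of -0.29 with the mitochondrial share of a cell there, whose part in the value of mt-Co2 was not tested. Since 41 of 76 cells are tied at 0, a rho of this size is no more than a description. Sparc, at 0.51 in the epithelium, had -0.37 in the mesenchyme.

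Of 14 mesenchymal core genes tested, 2 varied down, among them Cdh2, N-cadherin (-0.33), against 0.51% of all genes, with a median of -0.19 against 0.00 over all genes. Ptn had 1044 CPM in the 23 cells at 100 CPM of Prox1 or more and 1557 CPM in the 41 without. Of the genes that the study names for its M-III mesenchyme, 7 of 8 were tested and none met the rule, with a median of 0.03 (Isl1 0.07 and Igf1 0.08). At the shares over all genes (0.362% up and 0.51% down), a list of this size can hold none, so nothing is read from this. The M-III list was chosen on these same cells. Nkx2-5, the driver gene of another line used here, had 0.29 (0.27 on both plates), just short of the threshold, at 12.3 CPM. A single gene of each of the mesothelial, lymphatic endothelial, blood endothelial and mural lists could be tested in these cells, with rho from -0.05 to 0.17, and no gene of the neural crest or blood lists could be.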

How the data were processed

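The authors trimmed reads with Trim Galore 0.6.5 (per the labels), used kallisto for pseudoalignment to GRCm38 and tximport to collapse transcripts, and each deposited value is an unnormalised estimated count of reads. The annotation release and tximport's scaling are not given in the sources used here. Of values above 0, 36.1% are not whole, but all Prox1 values are. Gene symbols came from GENCODE M21 (35866 of 36658 matched).

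The study's filters (1000 or more genes, 100000 or more counts, mitochondrial share up to 30%) left 549 of 576 cells. The 27 left out held 1 Prox1 count in all. No columns were identical, and no doublet caller was run. Levels are CPM of summed counts with exact 95% Poisson intervals, shares have exact 95% binomial intervals, and ratios have conditional exact intervals. Those of levels and ratios take reads as independent and those of shares take cells so. None covers the spread between plates or embryos. Named are the gate genes, neighbours, list members and, per class, the 10 highest and lowest rho among genes of at least 10 CPM with a count in at least 20% of cells. Correlations were checked on simulated data (Python 3.11.15, SciPy 1.17.1). Alternatives changed filter, scaling, cuts (20 and 200 CPM), plates, depth and the measure of correlation. The gene, lists and cuts were chosen with earlier results of these data known. Other assays of the study were not used here. Results for some genes are not reported here.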

Additional observations from a re-analysis of the deposited data

How the results depend on the processing

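No paired analysis was possible because each line is 1 sample and no test was made. No ratio of Prox1 levels between classes changed direction under the alternatives run. Leaving out each plate in turn moved Prox1 between 0.360 and 0.825 CPM in the Nkx2.5-Cre;mTmG line, 0 and 1.58 CPM in the Nkx3.2-Cre;mTmG line (0 without plate 7B) and 814.0 and 1102 CPM in the Prox1-GFP line. It moved the ratio of Epcam+ to Epcam- Vim+ cells between 5.31 and 14.9, of Cpa1+ to Cpa1- cells between 0.438 and 0.521, and of Chga+ to Chga- Cpa1- cells between 0.356 and 0.414.

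The median cell was at 0 CPM in both Cre lines and at 470.0 CPM in the Prox1-GFP line, whose mean over cells was 942.6 CPM. Median-of-ratios scaling gave 933.0 CPM for that line and ratios of 7.52, 0.507 and 0.403 in the order above. Cuts of 200 CPM gave 7.35, 0.485 and 0.428, cuts of 20 CPM gave 0.484 and 0.374 for the last 2, and medians over cells gave 0.424 and 0.293. Without the 4 mesenchymal cells of highest Prox1, an alternative chosen after seeing the data, the first ratio was 16.5. Its median form was not computed, as the median of Epcam- Vim+ cells is 0.

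Pearson's r of log2(CPM + 1) counted 65 genes up and 64 down in Epcam+ cells, sharing 52 of the 150 up and 32 of the 110 down, and 29 down in Epcam- Vim+ cells. Correction for genes detected left 52 down in Epcam+ cells. Chosen after seeing the data, Epcam+ cells without Chga+ gave 324 down (3.39% of genes, against 1.62% up), and Chga- Cpa1- cells 373 up and 509 down. In Epcam- Vim+ cells, no filter on genes gave 60 up and 52 down and cuts of 200 CPM gave 72 up and 66 down, so which direction held more genes changed, as it did in Epcam+ cells without Chga+ and at cuts of 200 CPM (1.34% of genes up, 1.59% down). The causes were not tested. The other 39 values compared moved within the counting interval or, for counts of genes, by less than 1.5 times, although the share in the Nkx3.2-Cre;mTmG line went from 2.09% to 1.05% both after thinning and with at least 5 counts.

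A count of 0 in a single cell allows up to 3 counts, or 1.98 to 13.3 CPM by depth, and 3 of the 7 Cre-line cells called with Prox1 rest on 1 or 2 counts.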
